A study of Caenorhabditis elegans with 40 samples.

Results

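In Caenorhabditis elegans an animal with a single X chromosome develops as a male and an animal with a pair of X chromosomes as a hermaphrodite, a female soma that makes its own sperm. The X dose is read in the embryo through X-encoded signal elements and the switch gene xol-1, and the sexual fate of each cell then depends on the zinc finger factor TRA-1, which is active in hermaphrodites and kept low in males. The dosage compensation complex lowers transcription from both X chromosomes of hermaphrodites and does not assemble in males. At the second larval stage (L2) the sexes look nearly alike: the male tail, the vulva and the gametes come later, and the somatic gonad and the sex-specific blast cells are only beginning to diverge.

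The comparison described here is that of L2 males with L2 hermaphrodites, chosen by the stage and sex given in the sample labels: 8 samples, 4 of each sex, out of 40 in the series, which covers L1, L2, L3, L4 and young adults (YA) in 10 groups. The L2 males were dpy-28(y1);him-8(e1489) animals and the L2 hermaphrodites were the wild-type strain N2. Both were grown at 25 °C, and whole animals were lysed. dpy-28 encodes a subunit of the dosage compensation complex and y1 is a temperature-sensitive allele under which XX animals die or are sick at 25 °C, while him-8 mutants lose X chromosomes in meiosis and so produce many XO sons. Male cultures were made by removing the immobile XX survivors at L1. Every male library therefore carried both mutations and every hermaphrodite library carried neither, so the 2 sexes also differed in strain, and the part of each in the values below cannot be told apart. The labels call the 4 samples of a group biological repeats, and each was a pool of many animals. A change in the level of a transcript cannot be told from a change in the number of cells that make it. The measurement was a 3′ RNA-seq protocol (bulk MARS-seq) in which unique molecular identifiers (UMIs) mark the original molecules, and the 8 libraries held between 4335717 and 7273903 UMIs.

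A gene's count in a library was scaled to a common library size and is called its normalized count. A gene was called male-enriched or hermaphrodite-enriched when its adjusted p was at or under 0.05, its log2 fold change was at least 1 in size and its mean normalized count over the 40 libraries was at least 5. Of 8110 genes tested, 39 were male-enriched (0.481%) and 17 were hermaphrodite-enriched (0.210%). The male-enriched genes included an insulin-like peptide, 2 chemoreceptors, the DM domain factor mab-3, a muscle myosin, 2 cuticle collagens and a run of neighbouring genes at the end of chromosome I. The hermaphrodite-enriched genes included an aspartyl protease and several enzymes and carriers of lipid, folate and arginine metabolism. The 4 male values lay wholly above the 4 hermaphrodite values for 38 of the 39 male-enriched genes, with F09C8.1 the exception, and wholly below them for all 17 hermaphrodite-enriched genes, beside the called shares of 0.481% and 0.210%. Over all genes tested, the male values lay wholly above in 463 (5.71%) and wholly below in 455 (5.61%), and the calls rest on the same values.

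**Figure D1:**
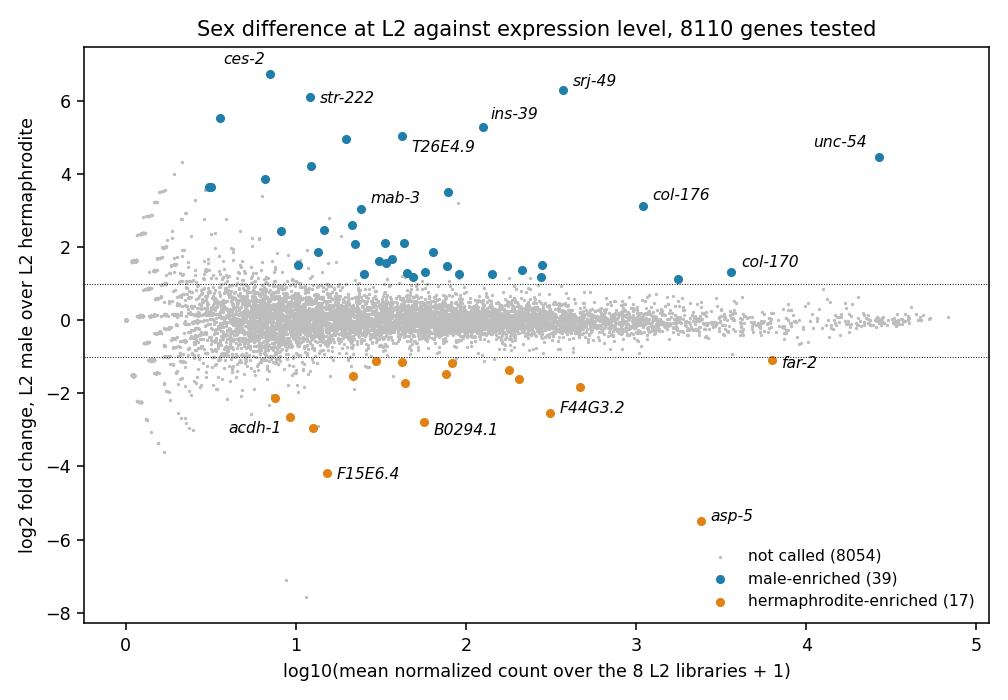
Fitted log2 fold change of L2 males over L2 hermaphrodites against the log10 mean normalized count of the 8 L2 libraries, for the 8110 genes tested. Each point is a gene, dotted lines mark a log2 fold change of 1 in either direction, and the called genes (39 male-enriched, 17 hermaphrodite-enriched) stand outside a cloud centred near 0. The grey points below -7 are acdh-2, whose mean over the 40 libraries was under 5, and 21ur-4978 (adjusted p = 0.736).

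Most of the transcriptome differed little between the sexes at this stage. Among the 5200 genes with a mean L2 normalized count of at least 10, the median log2 fold change was -0.0053 and 88.3% of the genes lay within 0.5 of 0 on the log2 scale. The Spearman correlation of log2(normalized count + 1) over these genes was 0.961 to 0.981 between male libraries, 0.961 to 0.983 between hermaphrodite libraries and 0.947 to 0.973 between a male and a hermaphrodite library. An unadjusted p under 0.05 was reached by 526 genes and an adjusted p at or under 0.05 by 66.

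The labelled tissue was checked with genes chosen as tissue markers. The summed normalized counts of body wall muscle markers (myo-3, unc-15, unc-27, tni-3, act-4) were 26649 to 30509 in males and 21816 to 29565 in hermaphrodites. Intestinal markers (elt-2, ges-1, ifb-2, vha-6) summed to 2665 to 2911 in males and 2933 to 3738 in hermaphrodites, hypodermal markers (dpy-7, wrt-2, col-19, lin-26) to 2248 to 2509 and 1881 to 2168, neuronal markers to 2516 to 2925 and 2765 to 3037, and germline markers to 280.5 to 440.4 and 320.2 to 471.6. The pharyngeal muscle markers ranged from 993 to 1782 and from 1066 to 2607. None of the 24 marker genes tested was called. Hypodermal sums were higher in every male library and intestinal sums lower in every male library than in any hermaphrodite library, without a call for any of those genes. Their largest terms were dpy-7 (means of 1486 in males and 1293 in hermaphrodites) and ifb-2 (2438 and 2896). col-19 was near the floor (5.99 and 3.44) and does not mark the hypodermis at this stage. Of the 4 intestinal markers ges-1 alone was higher in males (log2 fold change 0.57 ± 0.67). The part of these sums in the gene results below was not tested. The 6 vitellogenins summed to at most 17.4 normalized counts in any of the 8 libraries, with vit-3 and vit-5 at 0 counts, and the 34 major sperm protein genes to at most 16.4, so both sets were at or near 0.

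Of the 14 tested genes of the sex-determination list only mab-3 was called, and dpy-28, 1 of the mutated genes, was not. The X signal elements, of which ceh-39 was called, formed a separate list and are given further below. dpy-28 stood at 90.8 ± 13.7 normalized counts (SD, n = 4) in males against 69 ± 11.7 in the other sex, with a log2 fold change of 0.4 ± 0.27 (SE). him-8 was not analysed here, and a count of dpy-28 transcripts does not test for the y1 allele. her-1, the secreted signal that promotes male fate, was under the low-count filter with 7 counts over the 4 male libraries and 1 over the 4 hermaphrodite libraries. Means in males and hermaphrodites were, for tra-1, 21.9 ± 5.9 and 12.5 ± 3.66 (log2 fold change 0.82 ± 0.36, adjusted p = 0.636), for fem-3, which acts upstream to keep TRA-1 low, 17.7 ± 2.4 and 11.4 ± 1.56 (0.64 ± 0.28, adjusted p = 0.601), and for laf-1 230.3 ± 35.6 and 152 ± 17.2 (0.6 ± 0.24, adjusted p = 0.475). The male values of all these 3 genes lay above the hermaphrodite values, as in 5.71% of all genes tested, and the adjusted p missed the threshold. The remaining tested members, fem-2, tra-2, sdc-1, fog-1, fog-3, gld-1, mag-1, mog-1, mog-4 and mog-5, had log2 fold changes between -0.44 and 0.43. Over the whole list 1 of 14 tested genes, mab-3, was male-enriched and none hermaphrodite-enriched, with a median log2 fold change of 0.22 beside 0 over all genes tested. The 8 tested members of the dosage compensation complex (capg-1, dpy-21, dpy-26, dpy-27, dpy-28, dpy-30, mix-1, sdc-1) ranged from -0.10 (dpy-30) to 0.64 (mix-1) with no call.

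The X chromosome as a whole differed little between the groups. The median log2 fold change was -0.016 over 767 X-linked genes and -0.0020 over 4338 autosomal genes with a mean L2 count of at least 10, with quartiles of -0.20 and 0.17 on the X. X-linked genes took 8.50, 8.68, 9.05 and 9.23% of the counts of those genes in the male libraries and 8.98, 9.04, 9.37 and 8.77% in the hermaphrodite libraries, and these ranges overlapped. Of the genes called, 8 of the 38 male-enriched genes with a position and 1 of the 17 hermaphrodite-enriched genes were X-linked, beside 1074 of 7982 tested genes with a position. On chromosome III, which carries dpy-28, there were no male-enriched genes and 2 hermaphrodite-enriched genes, T28D6.3 at 0.604 Mb and far-2 at -1.68 Mb from dpy-28. On chromosome IV the nearest called gene lay 1.82 Mb from him-8.

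Several male-enriched genes with a known role act in signalling. ins-39 (X:1343758-1344421, WBcel235) encodes an insulin-like peptide, and its normalized counts were 274, 199.6, 211 and 293 in the 4 male libraries and 6.39, 6.35, 4.92 and 7.32 in the 4 hermaphrodite libraries. Every male library lay far above every hermaphrodite library, and the log2 fold change was 5.28 ± 0.29 (SE, adjusted p = 9.61e-15). srj-49 (V:2846250-2848340), a chemoreceptor of the SRJ family of G protein-coupled receptors, had 775, 691, 693 and 771 normalized counts in males and 9.13, 10.9, 6.33 and 11 in hermaphrodites, a log2 fold change of 6.29 ± 0.48 (adjusted p = 2.59e-12). str-222 (V:1636159-1639281), a receptor of the STR family, had 24.7, 20.1, 17.3 and 26.7 in males and 0, 0, 0.703 and 0 in hermaphrodites, that is 91 counts against 1, a ratio of 102 with a 95% counting interval of 17.9 to 4084. The fitted log2 fold change of str-222 went from 6.1 to 7.59 without hermaphrodite repeat 3, the library with that count. Of 10 chemoreceptor genes tested, srj-49 and str-222 were male-enriched and none was hermaphrodite-enriched, beside 0.481% and 0.210% of all genes tested. The median log2 fold change of the list was 0.29 beside 0 over all genes tested. The list held 52 genes with counts, and the rest were under the low-count filter. str-222 had a mean of at most 0.470 in hermaphrodites at any stage and passed that filter through male libraries. The share of calls is therefore not read as a trait of the family.

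Insulin-like peptides moved in both directions. Of 16 tested, ins-39 was male-enriched and ins-26 hermaphrodite-enriched, and the list's median log2 fold change was -0.25. ins-26 (I:14037151-14037777) had 17.2, 34.2, 27.7 and 22.6 normalized counts in males and 62.1, 50.8, 68.9 and 44.8 in hermaphrodites, a log2 fold change of -1.15 ± 0.27 (adjusted p = 0.0211). Its groups did not overlap, but the separation was small. Leaving out male repeats 1, 3 or 4 or hermaphrodite repeats 1 or 3 ended the call of ins-26 (over the 8 omissions, its log2 fold change was 1.01 to 1.31 in size with an adjusted p of up to 0.147). pdk-1 (X:1321344-1327986) encodes the kinase that acts below the insulin receptor DAF-2 and phosphatidylinositol 3-kinase to activate AKT. Its values were 120.4, 105, 95 and 131 in males and 35.6, 38.1, 40.8 and 45.7 in hermaphrodites, a log2 fold change of 1.49 ± 0.19 (adjusted p = 1.39e-06). pdk-1 lies 15.8 kb from ins-39 on the X, the nearest called gene to it, and the 2 genes are on opposite strands. Of the FMRFamide-like peptides (23 tested, median -0.0010) and neuropeptide-like proteins (30 tested, median -0.12) none was called. Their most abundant members were flp-14 (956 ± 78.6 in males against 849 ± 56.7 in hermaphrodites, log2 fold change 0.17 ± 0.20), flp-11 (363 ± 56.7 in males against 437 ± 20.8 in hermaphrodites, log2 fold change -0.27 ± 0.35), nlp-24 (7103 ± 1076 in males against 11082 ± 1087 in hermaphrodites, log2 fold change -0.64 ± 0.22) and nlp-33 (3407 ± 249 in males against 4183 ± 695 in hermaphrodites, log2 fold change -0.3 ± 0.19).

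mab-3 (II:9732137-9738035) encodes a DM domain transcription factor that TRA-1 represses, and in adult males it keeps yolk genes off in the intestine and is needed for the sensory rays of the tail. Its normalized counts were 37.6, 41.3, 56.9 and 28.7 in males and 7.3, 4.53, 2.11 and 6.4 in hermaphrodites, and the lowest male library was above the highest hermaphrodite library (3.04 ± 0.34, adjusted p = 4.32e-08). Of the other 6 DM domain genes tested none was called. dmd-3, which acts in male tail tip morphogenesis, had a mean of 2.01 ± 1.8 in males and 0.228 ± 0.456 in hermaphrodites (adjusted p = 0.255), near the level of single counts. dmd-4, dmd-6, dmd-7, dmd-8 and dmd-9 had log2 fold changes between -0.65 and 0.42.

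Further transcription factors among the male-enriched genes were unc-130, ceh-39 and ces-2. unc-130 (II:11281966-11283959) encodes a forkhead factor with roles in neuronal lineage asymmetry and cell migration, and it had 70.9, 75.6, 81.1 and 93.3 normalized counts in males and 31, 31.7, 25.3 and 41.2 in hermaphrodites (1.31 ± 0.30, adjusted p = 0.0136). unc-130 was no longer called without male repeat 4 or hermaphrodite repeats 1, 2 or 3 (over the 8 omissions, its log2 fold change was 1.21 to 1.45 in size with an adjusted p of up to 0.113). ceh-39 (X:1853874-1856172) encodes a ONECUT homeodomain factor and is an X signal element, a gene whose dose in the early embryo helps to repress xol-1. It had 33.3, 37.8, 29.1 and 36.9 in males and 12.8, 18.1, 13.4 and 12.8 in hermaphrodites, so it was higher in the XO animals at this stage (1.26 ± 0.31, adjusted p = 0.035). The omission of any 1 of the 8 libraries ended this call (over the 8 omissions, its log2 fold change was 1.21 to 1.39 in size with an adjusted p of up to 0.156). The other X signal element tested, fox-1, had a log2 fold change of -0.04 ± 0.30, and the autosomal signal element sea-2 had 0.66 ± 0.43 (adjusted p = 1 for both). Of 44 homeobox genes tested only ceh-39 was called, and of 59 nuclear hormone receptors none.

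**Figure D2:**
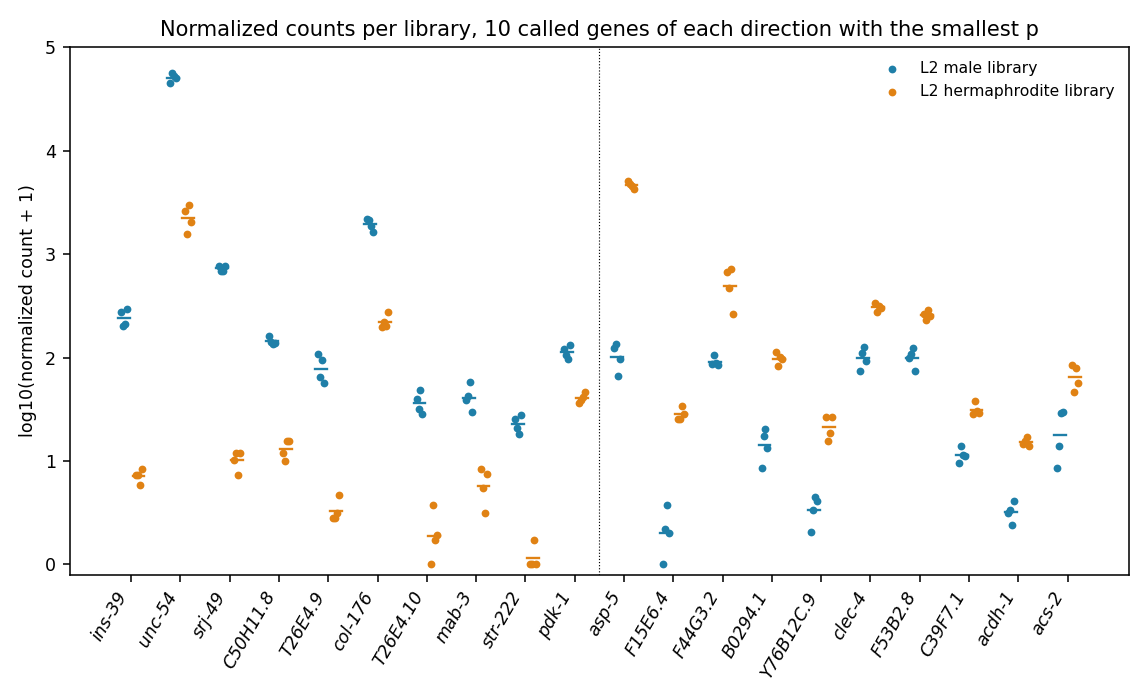
Log10(normalized count + 1) in each L2 library for the 10 male-enriched (left of the dotted line) and the 10 hermaphrodite-enriched genes with the smallest p. Each point is a library, 4 per sex, and the short bars are the means of the plotted values. In all 20 genes the groups do not overlap.

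unc-54 encodes the major myosin heavy chain of body wall muscle. It had 45197, 55899, 52985 and 50269 normalized counts in males and 2601, 1564, 2972 and 2060.2 in the other sex, a difference of 22.2-fold (log2 fold change 4.47 ± 0.30, adjusted p = 3.4e-14). No male library came near the hermaphrodite range. The other 20 body wall muscle genes tested did not share the difference: their log2 fold changes ran from -0.31 (ttn-1, titin) to 0.26 (lev-11, tropomyosin) with a median of 0.011, none was called, and myo-3, the companion myosin heavy chain of the same thick filaments, had means of 1686 and 1663 (log2 fold change 0.02 ± 0.17). Of the 6 pharyngeal muscle genes tested none was called, and their median was -0.42.

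unc-54 and 6 further male-enriched genes lay close together at the right end of chromosome I. unc-54 (I:14855901-14863482) lies 217 kb from the last annotated gene end, measured from its lower coordinate. The run of genes was noticed after the values were seen and is given as a description. From ces-2 (I:14961497-14965361) onward, a stretch of 97.5 kb held 15 tested protein-coding genes, of which 6 were male-enriched and 14 had a positive log2 fold change, with a median of 0.97 beside 0 over all genes tested. Among the 10 of these with a mean L2 count of at least 10 all were positive, and their median was 1.10. The 4 tested genes between unc-54 and ces-2 (unc-122, frm-1, ptr-23, kin-1) lay between -0.81 and 0.37. In the 100 kb before unc-54, 11 tested genes with a mean of at least 10 had a median of 0.048 and ranged from -0.48 to 0.85. That minimum left out F32A7.4 (I:14839856-14843128), which had 7 counts in males and none in hermaphrodites, at least 2.62-fold higher with a limit of 3 counts over the group (adjusted p = 0.431), and no count in male repeat 3.

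The members of this run have different known roles. ces-2 encodes a bZIP factor needed for the programmed death of particular neuronal sisters. It had 6.45, 10.6, 13.9 and 17.4 normalized counts in males and no count in any hermaphrodite library, so with a limit of 3 counts over the group it was at least 19.5-fold higher in males (adjusted p = 3.13e-06). tep-1 (I:14994581-15001691), of the thioester-containing protein family, had 305, 306, 320.4 and 301 in males and 113, 125, 109.7 and 129.9 in hermaphrodites (1.37 ± 0.23, adjusted p = 0.000225). F31C3.6 (I:15053608-15058994) had 243, 169, 201 and 186 and 72.1, 98, 80.8 and 84.2 (1.25 ± 0.24, adjusted p = 0.00156). It overlaps psf-2 on the other strand by 65 bases, and psf-2 had a mean of only 5.91. These 3 calls held without any 1 library.

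The other 3 called genes of the run were closer to the threshold. F33H2.3 (I:15034515-15035467) had 2621, 2515, 2350.3 and 2123 in males and 978, 1201, 1107 and 1127 in hermaphrodites (1.12 ± 0.24, adjusted p = 0.00817), with no overlap. It was not called without hermaphrodite repeat 1 (over the 8 omissions, its log2 fold change was 1.07 to 1.18 in size with an adjusted p of up to 0.0535). F33H2.5 (I:15005603-15013904), annotated by Ensembl as pole-1, the catalytic subunit of the leading-strand DNA polymerase epsilon, had 30.1, 36.6, 61 and 90.3 and 21, 17.2, 11.9 and 18.3 (1.68 ± 0.37, adjusted p = 0.0112), with the male libraries widely spread. Leaving out male repeat 4 or hermaphrodite repeat 3 ended the call of F33H2.5 (over the 8 omissions, its log2 fold change was 1.34 to 1.88 in size with an adjusted p of up to 0.147). dog-1 (I:15017283-15022990), the helicase that keeps G-rich tracts intact in replication, had 78.4, 72, 74.9 and 43.1 and 26.5, 27.2, 32.3 and 31.1 (1.19 ± 0.30, adjusted p = 0.0323). dog-1 was no longer called without any 1 library other than male repeat 4 (over the 8 omissions, its log2 fold change was 1.11 to 1.36 in size with an adjusted p of up to 0.135). Between these genes, cyn-5, a cyclophilin, reached an adjusted p of 0.0256 with 16126 ± 1802 in males and 8913 ± 1368 in hermaphrodites, but its log2 fold change of 0.86 ± 0.21 was under 1. F31C3.3 (1.08 ± 0.34, adjusted p = 0.17) and F31C3.2 (0.71 ± 0.23, adjusted p = 0.189) also missed a call, while ZK337.2 (0.28 ± 0.22) and F31C3.4 (0.1 ± 0.27) were nearer to 0.

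**Figure D3:**
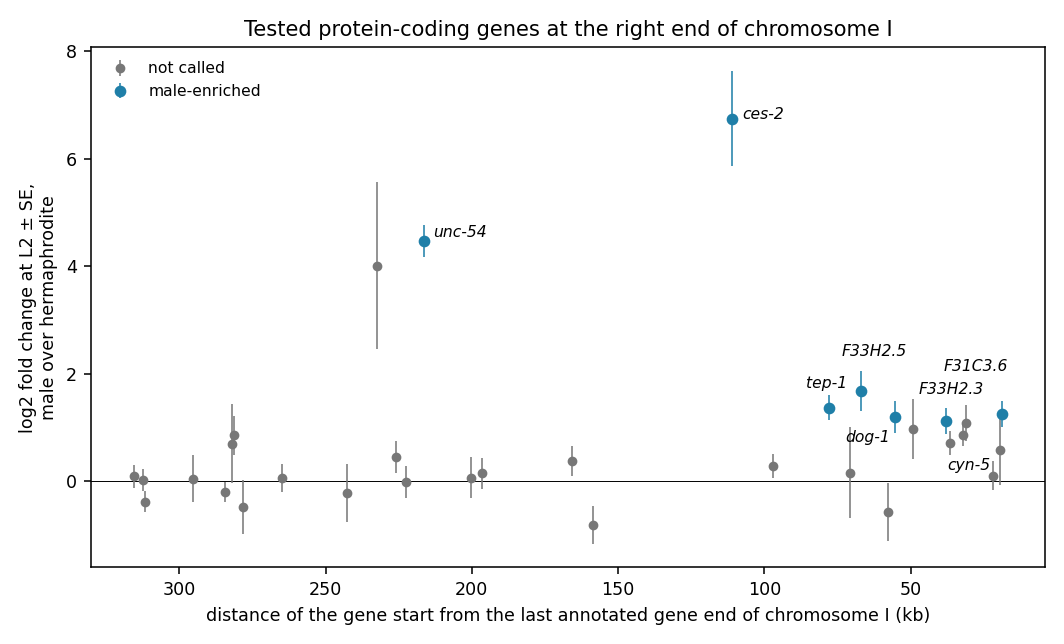
Fitted log2 fold change at L2 (± SE) of the tested protein-coding genes from 100 kb before unc-54 to the right end of chromosome I, against the distance of the gene's lower coordinate from the last annotated gene end. To the left of unc-54 the points lie around 0 except F32A7.4, plotted at 4.0 from 7 counts against 0, which is not called. unc-54 and ces-2 stand far above 0, and 14 of the 15 genes from ces-2 on are above 0.

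The same stretch was measured at the other stages in separate libraries. The median log2 fold change of its 15 protein-coding genes was 0.99 in L1, 0.62 in L3, 0.77 in L4 and -0.13 in YA animals, with 14, 13, 9 and 6 genes positive, beside all-gene medians of -0.14, 0.025, 0.051 and -0.00066. Among the 10 with a mean L2 count of at least 10, the medians were 0.83, 0.69, 0.29 and -0.34, with 9, 9, 5 and 4 positive. unc-54, ces-2, tep-1 and F31C3.6 stayed positive at every stage, whereas F33H2.3, F33H2.5 and dog-1 were hermaphrodite-enriched in YA (-1.41, -2.12 and -1.65), and F33H2.5 also at L4 (-1.34). unc-54 was male-enriched at all 5 stages and had mean normalized counts of 136498 in L1 males and 4215 in L1 hermaphrodites.

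Among structural genes of the cuticle, the collagen col-176 (X:10077597-10078728) had 2206, 2124, 1893 and 1631 normalized counts in males and 197, 218, 202 and 276 in hermaphrodites (3.14 ± 0.32, adjusted p = 7.7e-09). This was an 8.79-fold difference with no overlap. col-170 (X:6331709-6332611) had 6657, 4659, 5194 and 4149.9 in males and 1732, 2315, 2186 and 2113 in hermaphrodites (1.31 ± 0.20, adjusted p = 5.61e-05), a smaller and more variable difference. Collagens build the cuticle that is remade at each molt. Of 157 collagen genes tested, these 2 were male-enriched and none hermaphrodite-enriched, and the median log2 fold change was 0.14. Collagens are a family of similar sequences, so reads shared between near-identical members could blur these values. The astacin metalloprotease nas-27 (II:1175925-1179323) had 77.4, 61.4, 65.9 and 46.2 in males and 36.5, 21.8, 21.1 and 22.9 in hermaphrodites (1.3 ± 0.32, adjusted p = 0.036) and was the only call among 14 astacins tested. The omission of any 1 library other than male repeat 4 or hermaphrodite repeat 1 ended this call (over the 8 omissions, its log2 fold change was 1.18 to 1.51 in size with an adjusted p of up to 0.193).

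Other genes of cuticle synthesis and molting had mostly positive log2 fold changes without a call. Of the 18 molting genes tested none was called, and 15 of the 16 with a mean L2 count of at least 10 were positive with a median of 0.31, beside 2562 positive of 5200 genes and a median of -0.0053 over all genes at that level. lin-42, the period homolog that times the molts and stage-specific fates, had a mean of 346 ± 95.5 in males and 179 ± 12.2 in the other sex. Its male values lay wholly above, as in 5.71% of all genes tested, and its adjusted p was 0.138 (0.95 ± 0.29). The collagens had 76 positive of 107 at that level (median 0.14), the cuticlins and zona pellucida proteins 12 of 15 (median 0.25) and the hedgehog-related genes 17 of 26 (median 0.15). The most abundant members of the molting, cuticlin and hedgehog-related lists were cut-2 (15872 ± 5848 in males against 10543 ± 2485 in hermaphrodites, log2 fold change 0.59 ± 0.38), noah-1 (1839 ± 166 in males against 1772 ± 171 in hermaphrodites, log2 fold change 0.05 ± 0.21), noah-2 (1345 ± 94.5 in males against 1256 ± 105 in hermaphrodites, log2 fold change 0.1 ± 0.20), grl-16 (4433 ± 330.0 in males against 3064 ± 247 in hermaphrodites, log2 fold change 0.53 ± 0.36) and grl-7 (2780.4 ± 91.6 in males against 2384 ± 48.1 in hermaphrodites, log2 fold change 0.22 ± 0.25), of which the noah genes encode zona pellucida proteins of the cuticle. Many molting and collagen genes oscillate within each larval stage, and the part of the cultures' age in these values was not tested. Of the 9 heterochronic genes tested none was called, and lin-29, the zinc finger factor of the larva-to-adult switch, had 102 ± 5.98 and 98.9 ± 15.8 (0.04 ± 0.28). After lin-42 the most abundant was dre-1 (239 ± 37.6 in males against 242 ± 22.3 in hermaphrodites, log2 fold change -0.02 ± 0.29), an F-box gene of developmental timing.

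**Figure D4:**
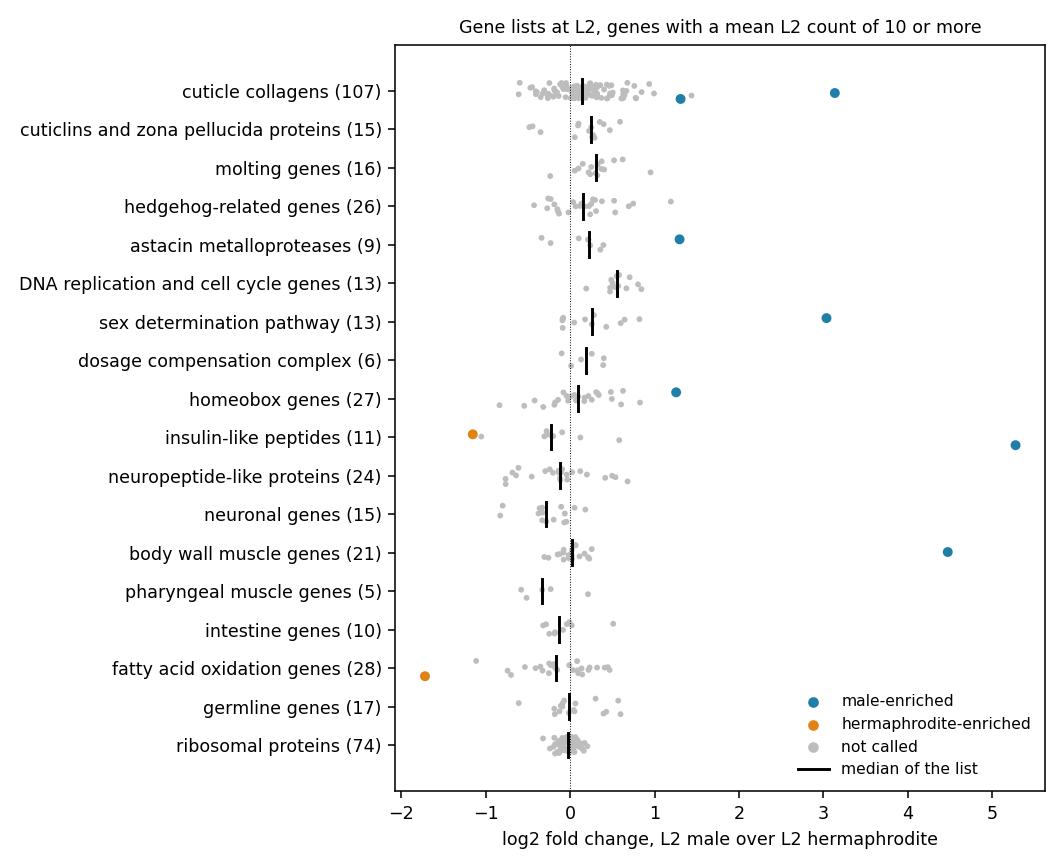
Log2 fold change of L2 males over L2 hermaphrodites for the members of 18 gene lists with a mean L2 normalized count of at least 10 (number in brackets). Each point is a gene, with called genes in colour, and the black bar is the list's median, which lies highest for the DNA replication and cell cycle genes (0.55) and lowest for the pharyngeal muscle genes (-0.33).

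Genes of DNA replication and the cell cycle had a positive list median. None of the 19 tested was called, the median log2 fold change was 0.54, and all 13 with a mean of at least 10 were positive (median 0.55). The most abundant were pcn-1, the sliding clamp PCNA, with 566 ± 81.3 in males and 408 ± 38.2 in hermaphrodites (0.47 ± 0.20, adjusted p = 0.585), and mcm-4, a subunit of the replicative helicase, with 380.5 ± 31.4 and 234 ± 11.2 (0.7 ± 0.24, adjusted p = 0.268). Neither gene's groups overlapped, and the male values lay wholly above in 5.71% of all genes tested. Of the germline genes 25 were tested and none was called (median -0.016). Of 15 neuronal genes tested none was called, 2 were positive and the median was -0.28. Among them unc-25, which makes the neurotransmitter GABA, fell short of a call only by its fold, at 169 ± 10.8 in males and 300.4 ± 10.8 in hermaphrodites (-0.83 ± 0.19, adjusted p = 0.0128). Intestine genes (11 tested, median -0.085), ribosomal proteins (75 tested, median -0.025) and heat shock genes (9 tested, median -0.12) had no call.

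Of each list with no call the 2 genes with the highest L2 level are given here where they have not been named. For the neuronal genes these were egl-21 (1538 ± 57.3 in males against 1608 ± 102 in hermaphrodites, log2 fold change -0.06 ± 0.16) and snb-1 (1343 ± 160.0 in males against 1447 ± 46.2 in hermaphrodites, log2 fold change -0.11 ± 0.24), the first a neuropeptide-processing carboxypeptidase and the second synaptobrevin. For the pharyngeal muscle genes they were tni-4 (590.4 ± 65.9 in males against 883 ± 250.3 in hermaphrodites, log2 fold change -0.58 ± 0.27) and myo-1 (617 ± 161 in males against 776 ± 371 in hermaphrodites, log2 fold change -0.33 ± 0.29). For the germline genes they were nos-3 (369 ± 21.2 in males against 299.7 ± 32.5 in hermaphrodites, log2 fold change 0.3 ± 0.30) and prg-1 (228 ± 23.2 in males against 349 ± 24.6 in hermaphrodites, log2 fold change -0.61 ± 0.22), the latter the Piwi protein that binds piRNAs. For the intestine genes they were asp-1 and act-5 (5270.0 ± 232 in males against 6581 ± 422 in hermaphrodites, log2 fold change -0.32 ± 0.28), the actin of microvilli. For the ribosomal proteins they were rps-25 (54780.4 ± 6777 in males against 52421 ± 4414 in hermaphrodites, log2 fold change 0.06 ± 0.18) and rps-14 (53250.2 ± 6092 in males against 52120.1 ± 1855 in hermaphrodites, log2 fold change 0.03 ± 0.17), and for the heat shock genes hsp-1 (18951 ± 2197 in males against 16834 ± 2341 in hermaphrodites, log2 fold change 0.17 ± 0.26) and hsp-3 (6714 ± 336 in males against 7619 ± 448 in hermaphrodites, log2 fold change -0.18 ± 0.27), the cytosolic and endoplasmic reticulum chaperones of the HSP70 family. The nuclear hormone receptors (59 tested, median -0.082) were led by nhr-46 (248 ± 9.22 in males against 284 ± 55.9 in hermaphrodites, log2 fold change -0.2 ± 0.19) and nhr-91 (209 ± 36.2 in males against 219.6 ± 3.81 in hermaphrodites, log2 fold change -0.07 ± 0.18), and the F-box, MATH and BATH genes (24 tested, none called, median 0.083) by math-41 (176.3 ± 19.7 in males against 138 ± 14 in hermaphrodites, log2 fold change 0.36 ± 0.22) and bath-43 (85.9 ± 14.2 in males against 85.7 ± 12.2 in hermaphrodites, log2 fold change 0.01 ± 0.36). Of the lists chosen for older animals or gametes, the eggshell list (11 tested, median 0) was led by mbk-2 (873 ± 51.2 in males against 768 ± 57.9 in hermaphrodites, log2 fold change 0.19 ± 0.25) and cbd-1 (50.9 ± 19.8 in males against 35.4 ± 4.28 in hermaphrodites, log2 fold change 0.53 ± 0.25). At that level mbk-2 was plainly expressed in L2 larvae of both sexes, so it does not mark older animals. The vitellogenins were led by vit-1 (6.25 ± 2.11 in males against 2.65 ± 1.55 in hermaphrodites, log2 fold change 1.15 ± 0.47) and vit-4 (2.24 ± 0.696 in males against 4.24 ± 2.25 in hermaphrodites, log2 fold change -0.94 ± 0.51), and the major sperm proteins by msp-31 (1.81 ± 1.75 in males against 1.67 ± 0.913 in hermaphrodites, log2 fold change 0.15 ± 1.21) and msp-33 (1.25 ± 0.574 in males against 0.227 ± 0.453 in hermaphrodites, log2 fold change 2.0 ± 2.08). Of the thaumatins, lysozymes and caenopores 1 of 22 tested was called, with a median of 0.21.

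Several male-enriched genes carry no assigned function here. C50H11.8 (V:3054554-3055908) had 162, 141, 133 and 137 normalized counts in males and 11, 9.07, 14.8 and 14.6 in hermaphrodites, a gap that no library crossed (3.52 ± 0.30, adjusted p = 7.79e-11). T26E4.9 (V:15799212-15802723) had 107, 63.8, 92.9 and 55.4 in males and 1.83, 1.81, 2.11 and 3.66 in hermaphrodites (5.03 ± 0.49, adjusted p = 1.63e-09). T26E4.10, which lies 1.00 kb from it on the same strand, had 38.7, 30.7, 47.9 and 27.7 and 0, 2.72, 0.703 and 0.915 (4.96 ± 0.53, adjusted p = 1.85e-08). Both neighbours were near single counts in hermaphrodites and higher in every male library. The value of T26E4.10 went to 5.78 without hermaphrodite repeat 2. C38D9.2 (V:17567150-17571742) had 53.7, 31.9, 29.1 and 25.6 and 4.56, 2.72, 8.43 and 6.4 (2.61 ± 0.38, adjusted p = 2.12e-05), and F31E9.6 (V:17313569-17315153) had 129, 90.9, 98.5 and 79 and 26.5, 25.4, 30.2 and 26.5 (1.86 ± 0.28, adjusted p = 3.8e-05). C18H7.1 (IV:615544-620936) had 3.22, 11.8, 13.9 and 13.3 in males, with repeat 1 well below the rest, and 0.913, 0, 0.703 and 0.915 in hermaphrodites. These were 46 counts against 3, a ratio of 17.2 with a 95% counting interval of 5.54 to 86.6 (adjusted p = 7.42e-05).

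Genes of families that act in defence or are secreted formed a smaller set. thn-2 (IV:12383170-12383974), a thaumatin-family protein of a group induced by bacteria, had 62.3, 47.2, 74.9 and 88.2 normalized counts in males and 16.4, 17.2, 13.4 and 16.5 in hermaphrodites (2.11 ± 0.33, adjusted p = 5.61e-05). The C-type lectins gave calls in both directions, clec-81 and clec-82 in males and clec-4 in hermaphrodites, out of 84 tested with a median of 0.055. clec-82 (IV:2835664-2838723) had 8.6, 20.1, 22.2 and 41 in males and 7.3, 3.63, 1.41 and 4.57 in hermaphrodites (2.45 ± 0.51, adjusted p = 0.00525), with male repeat 1 close to the hermaphrodite range. It was not called without male repeat 4 or hermaphrodite repeat 3 (over the 8 omissions, its log2 fold change was 2.03 to 2.85 in size with an adjusted p of up to 0.0636). clec-82 shares 116 bases with Y54G2A.7 on the same strand. clec-81 had 38.7, 24.8, 32.6 and 43.1 and 4.56, 5.44, 10.5 and 11.9 (2.07 ± 0.45, adjusted p = 0.00911). Leaving out hermaphrodite repeats 1 or 2 ended the call of clec-81 (over the 8 omissions, its log2 fold change was 1.89 to 2.29 in size with an adjusted p of up to 0.063). scl-2 (IV:13057710-13059062), a secreted SCP-like protein, had 348, 324, 419.6 and 441 and 159, 162, 151 and 199 (1.19 ± 0.26, adjusted p = 0.00957). scl-2 was no longer called without male repeat 4 or hermaphrodite repeat 3 (over the 8 omissions, its log2 fold change was 1.12 to 1.29 in size with an adjusted p of up to 0.0631).

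Of the remaining male-enriched genes, 4 kept their call without any 1 library. arrd-9, an arrestin-domain gene, had 5.17 ± 1.21 (SD, n = 4) in males and no count in hermaphrodites, at least 8.24-fold higher (adjusted p = 0.000257). Its mean over the 8 L2 libraries was 2.58, so a minimum of 5 taken over these libraries removed it. F22H10.6 had 21.6 ± 7.38 and 0.983 ± 0.865 (4.22 ± 0.75, adjusted p = 0.00045, with a log2 fold change of 4.91 without hermaphrodite repeat 3). F54D5.5 had 49.3 ± 1.9 and 16.5 ± 3.1 (1.57 ± 0.28, adjusted p = 0.000429), with the 4 male libraries close to each other. T05A8.8 had 45 ± 5.61 and 14.7 ± 1.01 (1.61 ± 0.33, adjusted p = 0.00401).

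The calls of the last 8 male-enriched genes were lost without at least 1 library. The pseudogene Y73B3A.3 had 19.9 ± 1.69 in males and 5.3 ± 2.61 in hermaphrodites (1.86 ± 0.40, adjusted p = 0.00798). The omission of hermaphrodite repeats 1 or 2 ended this call (over the 8 omissions, its log2 fold change was 1.65 to 2.2 in size with an adjusted p of up to 0.0607). C50F7.5 had 127 ± 32.1 and 53.4 ± 13.1 (1.25 ± 0.27, adjusted p = 0.00911). It was not called without male repeats 3 or 4 or hermaphrodite repeat 2 (over the 8 omissions, its log2 fold change was 1.09 to 1.39 in size with an adjusted p of up to 0.0815). B0462.5 had 12.3 ± 2.16 and 2.17 ± 1.62 (2.45 ± 0.54, adjusted p = 0.0106). Leaving out hermaphrodite repeats 3 or 4 ended the call of B0462.5 (over the 8 omissions, its log2 fold change was 2.22 to 3.03 in size with an adjusted p of up to 0.0845). F09C8.1 was the gene whose groups overlapped, with male repeat 1 at 22.6 and hermaphrodite repeat 1 at 23.7 (2.12 ± 0.47, adjusted p = 0.0112). F09C8.1 was no longer called without male repeat 4 or hermaphrodite repeats 2, 3 or 4 (over the 8 omissions, its log2 fold change was 1.7 to 2.65 in size with an adjusted p of up to 0.135).

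W03B1.3 had 13.9 ± 4.51 in males and 4.82 ± 1.59 in hermaphrodites (1.5 ± 0.34, adjusted p = 0.0137), with male repeat 4 low at 7.18. The omission of male repeats 1, 2 or 3 or hermaphrodite repeats 1 or 2 ended this call (over the 8 omissions, its log2 fold change was 1.32 to 1.71 in size with an adjusted p of up to 0.103). Y39B6A.1 had 414 ± 193 and 145 ± 53.8 (1.51 ± 0.36, adjusted p = 0.024), with male repeats 3 and 4 at 564 and 596 above repeats 1 and 2 at 272 and 223. It was not called without male repeats 3 or 4 or hermaphrodite repeats 2 or 3 (over the 8 omissions, its log2 fold change was 1.29 to 1.72 in size with an adjusted p of up to 0.157). Y47H10A.3 had 17 counts in males and 1 in hermaphrodites, a ratio of 19.1 with a 95% counting interval of 2.99 to 799 (adjusted p = 0.0317). Leaving out any 1 library other than male repeat 1 or hermaphrodite repeat 4 ended the call of Y47H10A.3 (over the 8 omissions, its log2 fold change was 3.3 to 5.17 in size with an adjusted p of up to 0.19). C37H5.14 had 16 counts and 1 count, a ratio of 18.0 with an interval of 2.79 to 754 (adjusted p = 0.039). It lies within C37H5.5 on the other strand over 2367 bases, and C37H5.5 had a log2 fold change of -0.25. C37H5.14 was no longer called without any 1 library other than male repeat 3 or hermaphrodite repeat 1 (over the 8 omissions, its log2 fold change was 3.28 to 5.15 in size with an adjusted p of up to 0.207).

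The hermaphrodite-enriched gene with the smallest p was asp-5 (V:8272385-8274044), an aspartyl protease of a family expressed in the intestine. Its normalized counts were 121, 135, 65.9 and 95.4 in males and 5139, 4782, 4546 and 4275 in hermaphrodites, a 45.1-fold difference (-5.49 ± 0.33, adjusted p = 4.94e-15). No male library came near the hermaphrodite range. Other members of the family were not called. asp-6, at 6032 ± 466 and 8689.7 ± 501, had -0.53 ± 0.17 (adjusted p = 0.22), asp-12, at 4.53 ± 4.11 and 16 ± 4.78, had -1.82 ± 0.54 (adjusted p = 0.128), and asp-1, the most abundant, had -0.01 ± 0.23. Of 20 aspartyl and cysteine proteases tested, asp-5 was the only call, and the list's median was -0.069.

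Several hermaphrodite-enriched genes encode enzymes and carriers of intermediary metabolism. acdh-1 (I:6497436-6499560), an acyl-CoA dehydrogenase of the alternative propionate breakdown route that is switched on when vitamin B12 is low, had 2.15, 2.36, 1.39 and 3.08 normalized counts in males and 13.7, 14.5, 16.2 and 12.8 in hermaphrodites (-2.66 ± 0.46, adjusted p = 0.000403). acdh-2, a related dehydrogenase, had no count in any male library and 19.2, 11.8, 13.4 and 18.3 in hermaphrodites, at least 21.7-fold higher (adjusted p = 0.000448), and escaped a call only because its mean over the 40 libraries was 4.59. acs-2 (V:15567394-15569897), the acyl-CoA synthetase that feeds mitochondrial fatty acid oxidation, had 7.52, 13, 28.4 and 28.7 and 84, 45.3, 78 and 55.8 (-1.72 ± 0.33, adjusted p = 0.00153). Its male libraries spread from 7.52 to 28.7, and the highest stayed below the lowest hermaphrodite library. far-2 (III:9081828-9082511), a fatty acid and retinol binding protein, had 3999, 4106, 4261 and 3642 and 7847, 8317, 9631 and 8418 (-1.1 ± 0.21, adjusted p = 0.00156), a small fold between tight groups.

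Few genes of the lists around these were called. Of 43 fatty acid oxidation genes tested, acdh-1 and acs-2 were hermaphrodite-enriched, none was male-enriched, and the median log2 fold change was -0.15. Of 24 desaturases, elongases and binding proteins far-2 alone was called (median -0.071). Of 8 propionate breakdown genes acdh-1 alone was called (median -0.10), while pcca-1 and pccb-1, the subunits of propionyl-CoA carboxylase in the B12-dependent route, had 0.04 ± 0.21 and 0.02 ± 0.15. folt-2 (V:2872465-2875600), a folate transporter, had 211, 256, 223 and 131 in males and 727, 697, 664 and 841 in hermaphrodites (-1.83 ± 0.39, adjusted p = 0.00798). The omission of male repeat 4 ended this call (over the 8 omissions, its log2 fold change was 1.67 to 1.96 in size with an adjusted p of up to 0.0609). It was the only call among 11 genes of the methionine cycle and folate supply (median 0), and it lies 24.1 kb from srj-49, which was called in the other direction. F44G3.2 (V:16103894-16105952), annotated by Ensembl as the arginine kinase argk-1, had 84.9, 105, 88.1 and 84.1 and 676, 466, 716 and 261 (-2.55 ± 0.34, adjusted p = 2.25e-06), with hermaphrodite repeat 4 the lowest of its group.

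Further hermaphrodite-enriched genes were clec-4 and genes known here by sequence name. clec-4 (II:12578331-12581113), a C-type lectin, had 73.1, 109.8, 126 and 91.3 normalized counts in males and 334, 273, 313 and 303 in hermaphrodites (-1.61 ± 0.26, adjusted p = 8.65e-05). F15E6.4 (IV:4291474-4291875) had 0, 1.18, 2.77 and 1.03 and 24.6, 24.5, 33 and 27.4 (-4.18 ± 0.54, adjusted p = 1.81e-06), near the level of single counts in males, and its log2 fold change was -5.03 without male repeat 3. B0294.1 (X:1896662-1897343), the only X-linked gene of this direction, had 7.52, 16.5, 19.4 and 12.3 and 112, 81.6, 101.2 and 95.1 (-2.77 ± 0.37, adjusted p = 2.39e-06) and lies 40.5 kb from ceh-39, which was higher in males. Y76B12C.9 (IV:2034950-2037074) had 1.07, 2.36, 3.47 and 3.08 and 25.6, 14.5, 17.6 and 25.6 (-2.95 ± 0.45, adjusted p = 3.66e-05). In each of these 4 genes every male library lay below every hermaphrodite library. F53B2.8 (IV:12526231-12527396) had 97.8, 106, 123 and 73.8 and 264, 229, 287 and 249.8 (-1.36 ± 0.22, adjusted p = 0.000105), C39F7.1 (V:1260342-1262618) had 8.6, 13, 10.4 and 10.3 and 27.4, 37.2, 29.5 and 28.4 (-1.53 ± 0.27, adjusted p = 0.000403), and T28D6.3 (III:11366767-11368435) had 50.5, 42.5, 63.8 and 44.1 and 112, 83.4, 131 and 126 (-1.16 ± 0.24, adjusted p = 0.00375). T28D6.3 overlaps the tubulin gene tba-7 on the other strand by 85 bases, and tba-7 had a log2 fold change of 0.076.

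The last 3 hermaphrodite-enriched genes were near the threshold. Y38E10A.14 (II:12623110-12624533) had 51.6, 39, 38.1 and 30.8 in males and 110.4, 80.7, 154 and 95.1 in hermaphrodites (-1.47 ± 0.32, adjusted p = 0.00894). It was not called without male repeat 4 or hermaphrodite repeat 3 (over the 8 omissions, its log2 fold change was 1.26 to 1.61 in size with an adjusted p of up to 0.0967). F58F9.1 (IV:6249841-6254205) had 16.1, 20.1, 14.6 and 21.5 and 24.6, 46.3, 54.8 and 30.2 (-1.12 ± 0.27, adjusted p = 0.0256). Leaving out male repeats 1, 2 or 3 or hermaphrodite repeats 2 or 3 ended the call of F58F9.1 (over the 8 omissions, its log2 fold change was 0.9 to 1.29 in size with an adjusted p of up to 0.267). F13H6.3 (V:6363408-6365671), annotated by Ensembl as the carboxylesterase gene cest-33, had 3.22, 2.36, 2.08 and 2.05 and 11.9, 9.98, 14.8 and 6.4 (-2.12 ± 0.54, adjusted p = 0.044). F13H6.3 was no longer called without any 1 library other than hermaphrodite repeat 4 (over the 8 omissions, its log2 fold change was 1.92 to 2.3 in size with an adjusted p of up to 0.214).

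Genes just outside the calling rule were few. With an adjusted p at or under 0.05 but a log2 fold change under 1 in size were clec-17 (0.94 ± 0.23), cyn-5 and C14C6.2 (0.72 ± 0.17) in males and unc-25, C34H4.2 (-0.8 ± 0.19), nlp-9 (-0.69 ± 0.16) and F09C3.2 (-0.94 ± 0.23) in hermaphrodites. With a mean under 5 were acdh-2 and, higher in males, F55G7.1 (9.97 ± 2.01 against 0.756 ± 1.0) and F40E12.1 (17 counts against 1). The gene nearest below the limit on p was C30F8.3, with 192 ± 41.4 in males against 82.9 ± 6.2 in the other sex (log2 fold change 1.21 ± 0.32, adjusted p = 0.0556).

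The genes called at L2 were then followed at the other 4 stages, each measured in 8 libraries of its own from the same strains. Of the 39 male-enriched genes, 13 were male-enriched at L1, where 3.30% of all tested genes were, 27 at L3 (7.62%), 24 at L4 (13.8%) and 23 in YA (22.3%). Of the 17 hermaphrodite-enriched genes, 9 were hermaphrodite-enriched at L1 (2.92%), 8 at L3 (0.925%), 7 at L4 (14.1%) and 4 in YA (21.8%). For the male-enriched genes the sign was the same in 28 at L1, 38 at L3, 30 at L4 and 28 in YA, and for the hermaphrodite-enriched genes in 15, 17, 14 and 9. The members' shares were thus above those of all genes at L1, L3 and L4 in both directions. In YA the male-enriched share was above that of all genes and the hermaphrodite-enriched share near it. All members had a mean of at least 5 over the 40 libraries, which some of the genes tested did not, so the shares are not fully alike.

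Male-enriched at all 5 stages were ins-39, unc-54, srj-49, C50H11.8, mab-3, str-222, ces-2, C38D9.2 and col-170, and hermaphrodite-enriched at all 5 were asp-5, Y76B12C.9 and Y38E10A.14. ins-39 had means of 368 normalized counts in L1 males, 244 in L2, 98.6 in L3, 40.7 in L4 and 29.4 in YA males, and was at or under 11.7 in hermaphrodites at each stage. mab-3 went from 22.9 in L1 males to 41.1 at L2 and 375 at L3, against 3.6, 5.09 and 35.9 in hermaphrodites. asp-5 ranged from 2799 to 4757 in hermaphrodites and from 15.2 to 384 in males. Called in their direction at no other stage were scl-2, F09C8.1, Y39B6A.1, ceh-39 and C37H5.14 among the male-enriched genes and acdh-1, acs-2, far-2, folt-2 and F13H6.3 among the hermaphrodite-enriched genes. The lack of a call is not the lack of a difference, as 3 of these missed one by the fold limit alone. far-2 had -0.94 at L3 (adjusted p = 0.00125) and -0.80 at L4 (0.00244). acs-2 had -0.95 at L1 (0.0219) and scl-2 had 0.78 at L3 (0.0448). Some genes were called the other way at another stage. Of the male-enriched genes of L2, 1 was hermaphrodite-enriched at L1, C18H7.1 (-1.03), 0 at L3, and 3 at L4, F33H2.5 (-1.34), F09C8.1 (-1.17) and C37H5.14 (-2.37). In YA 7 were, F54D5.5 (-4.12), ceh-39 (-1.13), Y39B6A.1 (-1.51), F09C8.1 (-1.56) and the 3 genes of the chromosome I run named above. Of the hermaphrodite-enriched genes, 1 was male-enriched at L1, F44G3.2 (1.76), 0 at L3, 1 at L4, acs-2 (1.95), and 4 in YA, acs-2 (2.4), B0294.1 (1.6), T28D6.3 (1.21) and F53B2.8 (1.2).

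**Figure D5:**
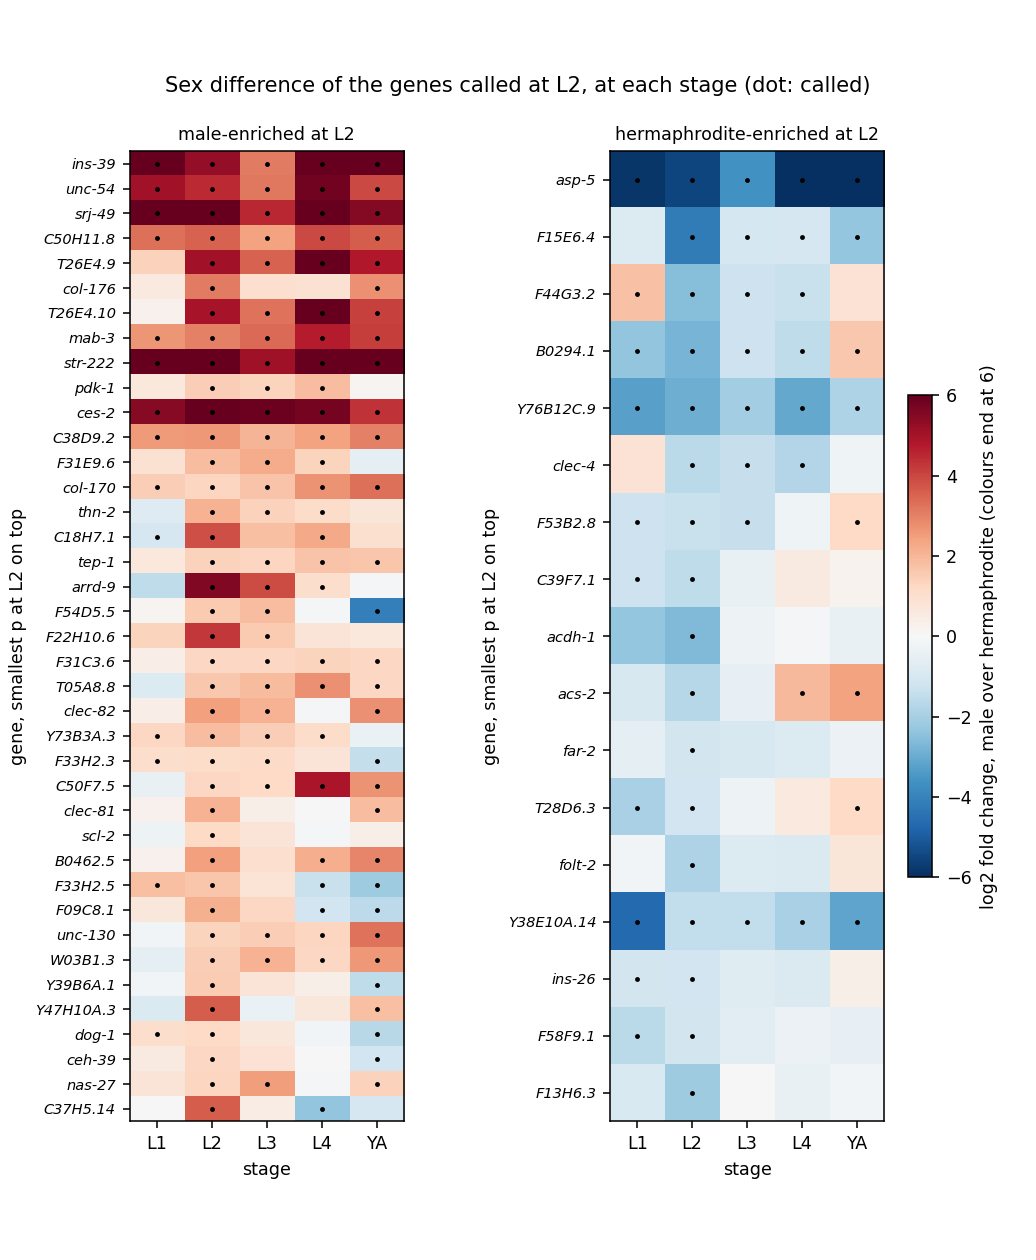
Fitted log2 fold change of males over hermaphrodites at each stage (columns) for the 39 male-enriched and 17 hermaphrodite-enriched genes of L2 (rows, smallest p at L2 on top). Red is higher in males and blue higher in hermaphrodites, the colours end at 6, and a dot marks a call at that stage. 9 male-enriched and 3 hermaphrodite-enriched genes carry a dot of the same direction in all 5 columns.

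Whether a sex difference at L2 differed from that of a neighbouring stage was tested by the difference of the 2 log2 fold changes. Against L1, 107 of 8110 genes passed (1.32%), 70 shifted toward males at L2 (0.863%) and 37 toward hermaphrodites (0.456%), and with DESeq2 size factors the split was 61 and 73. Against L3, 45 passed (0.555%), 9 toward males (0.111%) and 36 toward hermaphrodites (0.444%). Of the 39 male-enriched genes 10 passed against L1 and 2 against L3, and of the 17 hermaphrodite-enriched genes 3 and 3. These tests use the L2 libraries that chose the genes, so the counts are not read against the background.

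Only col-176 among the male-enriched genes and F15E6.4 among the hermaphrodite-enriched genes passed against both neighbours. col-176 differed from L1 by 2.56 ± 0.43 on the log2 scale (adjusted p = 0.000395) and from L3 by 2.14 ± 0.42 (adjusted p = 0.00537). Its mean was 2214 in L1 males and 1487 in L1 hermaphrodites, 1964 and 223 at L2, and 11891 and 5964 at L3, and its lowest mean of these was that of the L2 hermaphrodites. F15E6.4 differed by -3.34 ± 0.88 from L1 (adjusted p = 0.0417, a call that 12 of the 16 omissions of a single L1 or L2 library ended) and by -3.14 ± 0.66 from L3 (adjusted p = 0.00888). Relative to L1 the sex difference shifted toward males in thn-2 (2.88 ± 0.43), C18H7.1 (4.88 ± 0.67), T26E4.10 (4.71 ± 0.92), T26E4.9 (3.64 ± 0.84), T05A8.8 (2.42 ± 0.45), Y47H10A.3 (4.52 ± 1.00), W03B1.3 (2.07 ± 0.44), C50F7.5 (1.71 ± 0.37) and scl-2 (1.52 ± 0.37). Such a shift need not be a rise in males. The means of thn-2 were 118 in L1 males and 203 in L1 hermaphrodites, and 68.2 and 15.9 at L2. Male means were also lower at L2 than at L1 in C18H7.1, Y47H10A.3, W03B1.3, C50F7.5 and scl-2, and higher in T26E4.9, T26E4.10 and T05A8.8. The call of T26E4.9 was lost without L1 hermaphrodite repeat 4 (adjusted p = 0.0522), and that of scl-2 without L1 male repeat 4, L1 hermaphrodite repeat 1 or L2 hermaphrodite repeat 3 (adjusted p up to 0.0532). C50F7.5 was not called with the L1 and L2 libraries alone, and T26E4.9, W03B1.3 and F15E6.4 not with the repeat number as a block. The difference shifted toward hermaphrodites in F44G3.2 (-4.31 ± 0.54) and clec-4 (-2.46 ± 0.38), whose log2 fold changes at L1 were 1.76 (called) and 0.85 (not called).

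Relative to L3, ins-39 was more strongly male at L2 (2.17 ± 0.40, adjusted p = 0.00288). Its means were 244 in males and 6.24 in hermaphrodites at L2, and 98.6 and 11.7 at L3. asp-5 was more strongly hermaphrodite at L2 (-1.86 ± 0.40, adjusted p = 0.0101), with male means of 104.3 at L2 and 384 at L3. acdh-1 was too (-2.35 ± 0.56, adjusted p = 0.032): its means were 41.7 in L3 males and 51.5 in L3 hermaphrodites, and 12 of the 16 omissions of a single L2 or L3 library ended the call, with adjusted p up to 0.158, as did testing without the low-count filter. With the repeat number as a block, ins-39, acdh-1 and F15E6.4 were not called different from L3. For the other called genes a difference from the neighbouring stages was not detected.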

How the data were processed

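The series held 40 whole-animal libraries, of which 8 were L2. Per the study's methods the authors made the deposited counts with the UTAP pipeline: reads were trimmed with cutadapt, aligned to WBcel235 with STAR 2.4.2a, marked as duplicates by UMI and counted over genes by HTSeq-count (union mode), each library on its own. The annotation release is missing from the sources that were read. The deposited table also held log2 values that the authors had corrected with ComBat. Equal counts of 0 had equal ComBat values within each repeat number (17062 of 17062 sets) and unequal values between numbers (6092 of 6092 genes, tolerance 1e-06), so these values were adjusted by repeat number. They were read for that check only. The normalized and variance-stabilized columns, and the authors' fold changes and p-values for their own comparisons, were not used.

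Raw counts were tested with edgeR 4.0.16 in R 4.3.3 (limma 3.58.1): TMM scaling, filterByExpr (minimum count 10, minimum total 15), and the quasi-likelihood F test on 10 group means over 40 libraries, with Benjamini-Hochberg adjustment over 8110 of 11933 genes. Every adjusted p in the text is from this test unless another is named. The thresholds were those of the study's methods. The standard error of a log2 fold change was its size divided by the square root of F. Normalized counts were scaled to the geometric mean effective library size of 5164720. The interval of a ratio with 1 to 3 counts in 1 group is an exact 95% interval, a count of 0 was set to 3 counts over the group for a lower bound, and both cover counting error only. Positions are from Ensembl release 115 and RefSeq on WBcel235 for 11749 genes. The test was tried on simulated counts before use. Alternatives were DESeq2 1.42.0, DESeq2 size factors, no filter, the compared stages alone, the replicate number as a block, the mean count over the compared stages, and leaving out each library. The p-values measure the spread between the repeats, whose cultures are not described further in the labels.

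Every called gene was named. Values per library were given for up to 15 genes of each direction with the smallest p, for called members of the gene lists and for genes the study names for early larvae, and the 2 genes with the highest level for lists with no call. Genes just outside the thresholds and the neighbours on chromosome I were named after their values were seen. The kinase genes src-1 and src-2 were taken out of the chemoreceptor list, which had matched them by name, after the values were seen. The comparison and the 35 gene lists were chosen with earlier results of these data known.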

Additional observations from a re-analysis of the deposited data

Results flagged for a closer look

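In 7 of the 56 called genes and 12 of 87 other genes screened, 1 of the 4 libraries of a group stood far from the others by Dixon's test. This was 20 of 282 groups (7.09%). For normally distributed values chance alone does it in about 1 in 20 groups. A group with a count in only 1 library is always flagged, so the share is not read against that rate. The hermaphrodite groups of str-222, Y47H10A.3, C37H5.14, her-1, dmd-3, msp-33 and F40E12.1 were flagged in this way. In the called genes these libraries were hermaphrodite repeat 4 for T26E4.9 (3.66 normalized counts) and for Y47H10A.3 (0.915, the only count of its group), hermaphrodite repeat 3 for str-222 (0.703, also the only count), hermaphrodite repeat 1 for C37H5.14 (0.913, also the only count) and for nas-27 (36.5), hermaphrodite repeat 2 for ceh-39 (18.1) and male repeat 4 for W03B1.3 (7.18). In the other genes they were male repeat 4 for mog-4 (88.2), tra-1 (30.8), dmd-7 (127), nhr-46 (262) and hsp-3 (6214), hermaphrodite repeat 3 for gld-1 (16.9), tra-1 (7.03) and fox-1 (54.1), hermaphrodite repeat 4 for capg-1 (9.15), hermaphrodite repeat 2 for her-1, msp-33 and F40E12.1 (0.907 each) and hermaphrodite repeat 1 for dmd-3 (0.913).

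For a further set of called genes the sex difference at L2 was tested to differ from that of a neighbouring stage. Against L1, the difference shifted toward males on the log2 scale in C18H7.1 (4.88), T26E4.10 (4.71), Y47H10A.3 (4.52), T26E4.9 (3.64), thn-2 (2.88), col-176 (2.56), T05A8.8 (2.42), W03B1.3 (2.07), C50F7.5 (1.71) and scl-2 (1.52), and toward hermaphrodites in F44G3.2 (-4.31), F15E6.4 (-3.34) and clec-4 (-2.46). Against L3, it was shifted toward males in ins-39 (2.17) and col-176 (2.14), and toward hermaphrodites in F15E6.4 (-3.14), acdh-1 (-2.35) and asp-5 (-1.86). Among these differences, the replicate block ended the calls of T26E4.9, W03B1.3 and F15E6.4 against L1 and of ins-39, F15E6.4 and acdh-1 against L3, and the L1 and L2 libraries alone that of C50F7.5.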

How the results depend on the processing

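No gene called at L2 changed its direction under any alternative that gave a value, and 21 of the 39 male-enriched and 12 of the 17 hermaphrodite-enriched genes were called under all of those. With the L2 libraries alone, 7 male-enriched genes and 1 hermaphrodite-enriched gene fell under the low-count filter and had no value. ces-2 and C18H7.1 are among these and are still counted in the 21. The number of male-enriched genes was 40 with DESeq2 size factors, 36 without the filter, 48 with DESeq2 and 54 with the L2 libraries alone, and that of hermaphrodite-enriched genes 16, 16, 23 and 34. Leaving out 1 library gave 27 (without hermaphrodite repeat 3) to 35 male-enriched and 13 to 18 hermaphrodite-enriched genes. arrd-9, Y47H10A.3 and C37H5.14 were not called when the minimum of 5 was taken over the L2 libraries. The genes whose sex difference differed from L1 were 107, and 219 with DESeq2, 162 with L1 and L2 libraries alone and 69 to 213 with 1 library left out (69 without L1 male repeat 3, 213 without L1 male repeat 1, which had 1724365 UMIs). Their split toward males and hermaphrodites was 70 and 37, but 51 and 54 without the filter, 92 and 127 with DESeq2 and 59 and 103 with those stages alone. Against L3 the 45 genes became 97 with DESeq2, 155 with L2 and L3 libraries alone and 32 to 45 with 1 library left out. The cause of these shifts was not tested. Ratios of genes with 1 count in a group had wide counting intervals (17.9 to 4084 for str-222).

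With the replicate block, 33 male-enriched genes (30 of them among the 39) and 16 hermaphrodite-enriched genes were called, 64 genes differed from L1 and 22 from L3. The block ended the calls of F33H2.5, F09C8.1, unc-130, W03B1.3, Y47H10A.3, dog-1, ceh-39, nas-27, C37H5.14, ins-26, F58F9.1 and F13H6.3, and the differences of T26E4.9, W03B1.3 and F15E6.4 from L1 and of ins-39, F15E6.4 and acdh-1 from L3. Same-numbered L2 samples correlated at -0.28, 0.087, 0.36 and -0.44 in their deviations from the group means, and not every sample correlated best with its own number. With so few repeats these correlations cannot decide whether samples of the same number shared a batch.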
